A study of Homo sapiens with 2 samples.

Results

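Cell junction genes and regulators of the epithelial-mesenchymal transition (EMT) were followed in MDA-MB-231 cells, an established human line of triple-negative breast cancer, after siRNA against KMO. The 48 genes were listed by name: cadherins, catenins, desmosome, tight junction and gap junction genes, epithelial proteins, keratins with vimentin, and the EMT transcription factors. Of these, 45 had at least 1 probe set that the platform annotation gives to that gene alone, 95 probe sets in all among the 41091 probe sets that name 1 gene. CDH4 and F11R had no such probe set and are not analysed here. CTNND1, which encodes a catenin that stabilises cadherins at the membrane, had only probe sets shared with the readthrough gene TMX2-CTNND1 and is given no value.

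Total RNA was hybridised to Affymetrix U133 Plus 2.0 arrays, 1 for cells given a control siRNA and 1 for cells given KMO siRNA (siKMO). Both cultures were taken 48 h after transfection with the same reagent, in the same serum-containing medium. Although the labels name siRNA, the names of the arrays hold shLUC and shK421, a form common for hairpin vectors, so the construct was not settled. KMO encodes kynurenine 3-monooxygenase, a mitochondrial enzyme of tryptophan breakdown, and the study's title asks about its part in the progression of this cancer. Each condition is 1 array with no replicate, so no difference below has an error or a p-value, and each describes this pair of cultures. In RNA from whole cultures, fewer cells that express a gene and less RNA per cell cannot be told apart.

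In epithelial sheets, cadherins of the adherens junction bind neighbouring cells and are tied to actin through catenins, desmosomes bind keratin filaments through desmosomal cadherins and plakophilins, and tight junctions of claudins and occludin seal the space between cells. During EMT, transcription factors of the SNAI, ZEB and TWIST families repress many of these genes, E-cadherin (CDH1) first among them, by binding E-box sequences, while vimentin and other mesenchymal genes are switched on. MDA-MB-231 is widely used as a mesenchymal-like line with high vimentin and little E-cadherin.

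Levels are on a log2 scale, where a difference of 1 is 2-fold, and a gene counted as measured where the mean of both arrays was at least 6. The knockdown target KMO had 3 probe sets, at 2.95, 2.37 and 2.11 after control siRNA and 2.92, 2.51 and 2.35 after KMO siRNA. All 3 lay within the range of 11 genes of unrelated tissues, which ran from 2.04 to 5.22 after control siRNA and from 1.94 to 5.22 after KMO siRNA, so KMO does not check the labels. The median over all probe sets was 4.44 for control and 4.43 for siKMO.

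The cell line label was set against markers. All 6 mesenchymal line markers were measured, with VIM at 12.90 in the control array, the receptor AXL at 11.60 and CD44 at 11.43. The oestrogen receptor ESR1 stood at 4.75 after control and 4.84 after KMO siRNA and the progesterone receptor PGR at 2.58 and 2.39, under the minimum. ERBB2 stood at 7.44 and 7.37. The 3 leukocyte and 3 endothelial markers with a probe set were all under 6 in both arrays. Against the low E-cadherin this line is known for, CDH1 stood at 10.54 in the control array, and EPCAM and CDH3 were measured as well. Of the 3 luminal factors, SPDEF stood at 7.25 and 6.06 and GATA3 at 7.42 and 7.75, and FOXA1 was under the minimum at 2.34 and 2.15. What lies behind these epithelial levels was not tested.

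Of the 48 genes, 30 were measured, and junction genes were mostly lower in the siKMO array. 6 of the 30 (20.0%) were at least 2-fold lower, namely CDH1, CDH3, OCLN, CLDN7, SPINT1 and SPINT2, where 1.39% of all 8997 measured genes were. 0 of the 30 were at least 2-fold higher, against 0.856% of all measured genes. The genes were listed with earlier results of these data known, so these shares describe this list and not junction genes at large. In the further adherens, desmosome, tight junction and gap junction lists given below, 0 measured genes were at least 2-fold lower. At 1.5-fold, 10 were lower (33.3%, with 5.41% of all measured genes) and 1 was higher (3.33%, with 5.19%). In sign alone, 22 of the 30 were lower (73.3%, with 44.1%). The median difference, siKMO minus control, was -0.32 over the 30 genes and 0.04 over all measured genes. Adherens junction genes and epithelial surface proteins had the lowest medians, and desmosome genes and keratins stayed nearer to 0.

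**Figure D1:**
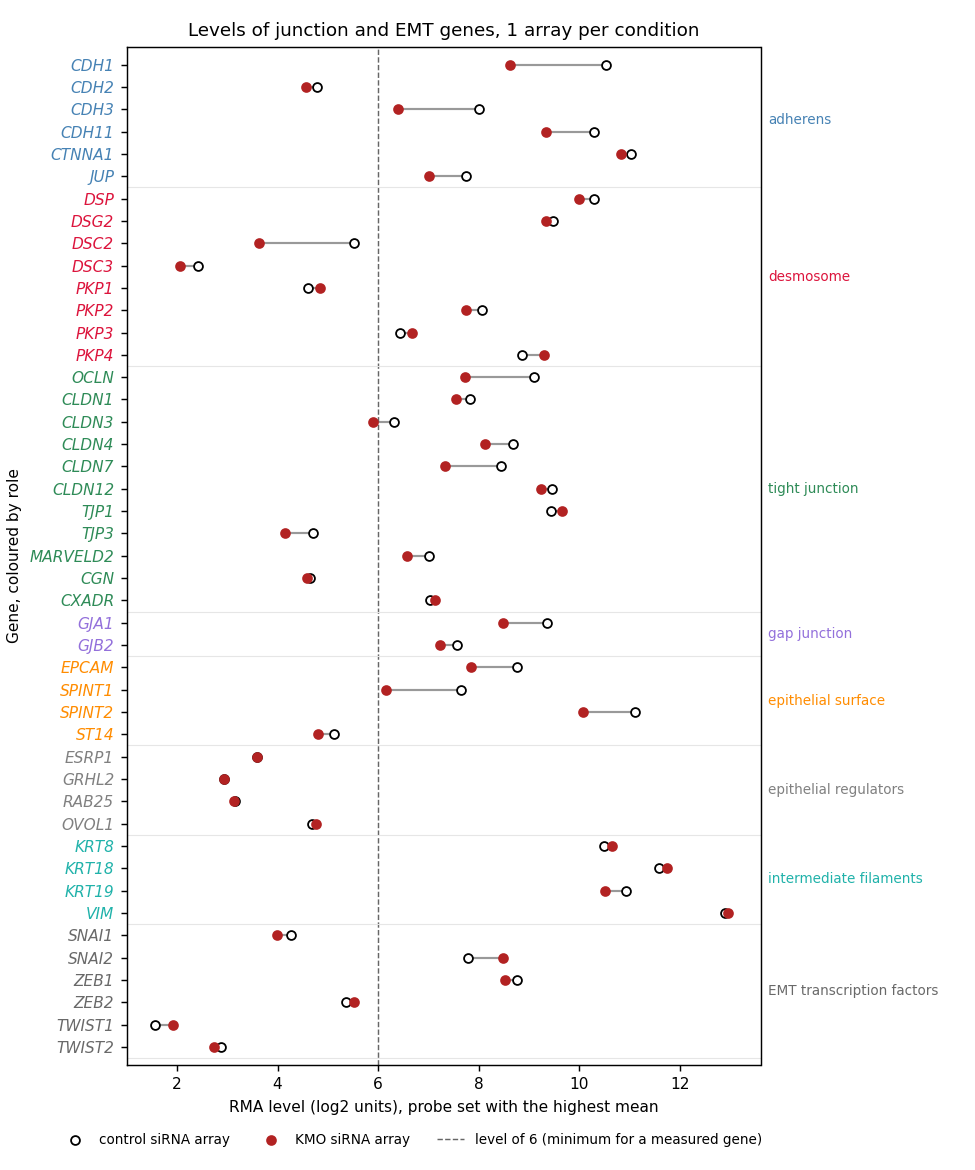
RMA level (log2 units, x axis) of each of the 45 genes with a probe set, in the control array (open circles) and the siKMO array (red circles), grouped by role, with a dashed line at the minimum of 6. The long leftward steps belong to CDH1, CDH3, OCLN, CLDN7, SPINT1 and SPINT2, and to DSC2 under the minimum, while the circles of KRT8, KRT18 and VIM lie close together.

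**Figure D2:**
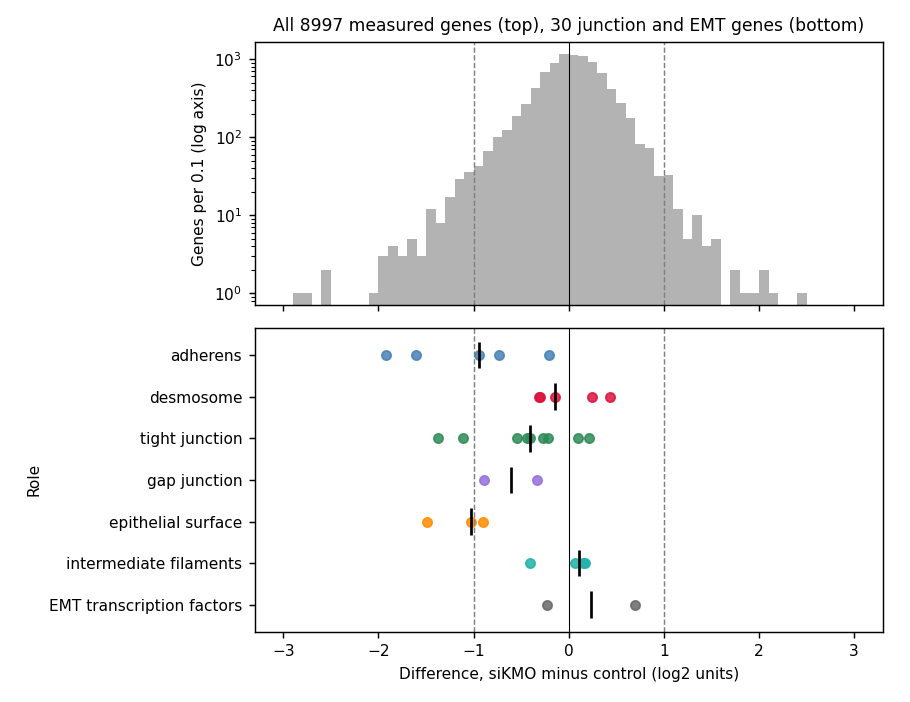
Difference, siKMO minus control (log2 units, x axis), of all 8997 measured genes (top, genes per bin of 0.1 on a log axis) and of the 30 measured junction and EMT genes by role (bottom, 1 point per gene, black bar at the median). Dashed lines mark 2-fold; 6 points lie beyond the left line and 0 beyond the right one.

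The adherens junction genes were lower in every measured case, 5 of 5, with a median of -0.95. Among all measured genes, 44.1% were lower. In the sentences that follow, the control level comes first and the siKMO level second. Where 1 of the levels is under 6, the fold is a lower bound that puts 6 in its place. CDH1, the main cadherin of epithelia, stood at 10.54 and 8.62, a 3.78-fold lower level. Its other probe set stood at 6.95 and 5.06, at least 1.93-fold lower. Both CDH1 probe sets thus gave nearly the same deposited difference, -1.92 and -1.89. Both carry the suffix _s_at, used for probe sets that can match several transcripts. CDH3, the cadherin of basal and placental epithelia, stood at 8.00 and 6.39 and was 3.05-fold lower.

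CDH11, a cadherin of mesenchymal cells and osteoblasts, was also lower, so the lower levels were not kept to the epithelial cadherins. With its highest probe set it stood at 10.29 and 9.34, 1.93-fold lower, and with 2 further measured probe sets the differences were -0.79 and -1.34. Depending on the probe set, CDH11 therefore lies on either side of 2-fold. N-cadherin, CDH2, which often replaces E-cadherin in EMT, was under the minimum at 4.77 and 4.56. A lower CDH1 in the siKMO array thus came with no measured CDH2 on either array.

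Among the catenins, which join cadherins to the cytoskeleton, JUP differed more than CTNNA1. JUP, or plakoglobin, which serves both adherens junctions and desmosomes, stood at 7.75 and 7.02, 1.66-fold lower. CTNNA1, the catenin that links to actin, stood at 11.02 and 10.82, and its 4 measured probe sets ran from -0.27 to -0.15. Its difference was small but of 1 sign in all of them. Of 5 measured genes among 15 further adherens and nectin genes with a probe set, 3 were lower and 2 higher, with a median of -0.04. Of all measured genes, 44.1% were lower. By the highest probe set of each gene, 0 of the 5 differed by 1.5-fold. At that fold, 5.41% of all measured genes were lower and 5.19% higher. The largest were NECTIN3 at 0.33, AFDN, the actin-binding partner of nectins, at -0.21 and NECTIN2 at -0.13. The other measured probe set of NECTIN3 differed by 0.68, past 1.5-fold. The 4 measured probe sets of NECTIN2 ran from -0.48 to -0.13. CTNNB1, which encodes beta-catenin and was chosen for mention after its values were seen, stood at 10.93 and 11.02.

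The desmosome genes as listed differed little as a group. JUP, which also serves desmosomes, was counted with the adherens junction genes and was 1.66-fold lower. Of the 8 listed desmosome genes, 5 were measured, 3 lower and 2 higher, with a median of -0.15. Of all measured genes, 44.1% were lower. By 1.5-fold, 0 of the 5 differed, where 5.41% of all measured genes were lower and 5.19% higher. DSP, desmoplakin, which anchors keratin filaments, stood at 10.30 and 9.99. DSG2, a desmosomal cadherin of simple epithelia, stood at 9.48 and 9.33, but a second probe set was higher by 0.12, so its direction was not settled.

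The plakophilins, which cluster the desmosomal cadherins, went both ways. PKP2 stood at 8.05 and 7.74. PKP3 stood at 6.43 and 6.68. PKP4, which is found at adherens junctions as well as desmosomes, stood at 8.86 and 9.29, and its 3 measured probe sets were all higher, by 0.24 to 0.44. PKP1 (4.60 and 4.84) and DSC3 (2.41 and 2.07) were under the minimum.

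DSC2, the desmocollin of simple epithelia, had a large deposited difference at levels under the minimum. It stood at 5.52 and 3.63 with its highest probe set and at 4.06 and 2.35 with the next. The other 2 probe sets differed by 0.10 and -0.42, all levels being under 6, so no fold is given. In the further desmosome list, PPL and PERP were measured, at -0.38 and -0.26, and the other 5 were not.

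Of 9 measured tight junction genes 7 were lower, 2 of them by at least 2-fold, and the median was -0.41. Among all measured genes, 44.1% were lower and 1.39% at least 2-fold lower. OCLN, occludin, the first transmembrane protein found at tight junctions, stood at 9.11 and 7.73, a 2.59-fold lower level. Its second measured probe set stood at 7.24 and 5.79, at least 2.37-fold lower. The remaining 2 OCLN probe sets, with means under 6, differed by -1.79 and -1.39, so all 4 were lower. MARVELD2, or tricellulin, a relative of occludin that seals the corners where 3 cells meet, stood at 7.01 and 6.57.

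Claudins form the strands of the tight junction. All 5 listed ones were lower in the siKMO array by varying amounts, where 44.1% of all measured genes were lower. CLDN7 stood at 8.44 and 7.33, 2.16-fold lower. CLDN4 stood at 8.67 and 8.13, 1.46-fold lower. CLDN3 stood at 6.31 and 5.90, at least 1.24-fold lower, just above the minimum in the control array. The remaining claudins moved less. CLDN1 stood at 7.83 and 7.55, with both probe sets lower (-0.35 and -0.28). CLDN12 stood at 9.46 and 9.24.

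The start regions of the genes were read for the E-box that SNAI and ZEB proteins bind, CACCTG or its reverse complement CAGGTG, which covers both strands, in the 250 bases before each annotated start in RefSeq (GRCh38.p14). Of the 48 genes, 29 were in the table; CDH1, CDH3 and SPINT2 were not among them. A motif was present in 14 of 50 start windows of these genes (28.0%) and in 17.5% of all 35116 start windows of the table. At the level of genes, 12 of the 29 held a motif at 1 or more starts, with 20.6% of all genes, a share that grows with the number of starts a gene has. OCLN, CLDN7 and SPINT1, the 3 genes at least 2-fold lower that were in the table, each held a motif, as did 5 of the other 16 measured genes in it. A match is a run of letters and not a measured binding site.

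The sequences below show where these motifs lie in OCLN, CLDN7 and SPINT1, read 5′ to 3′ on the gene's strand with the motif in capitals. The first is the 250 bases before the outermost OCLN start (chr5:69492297-69492546, plus strand), with the motif beginning 33 bases before the start. The others are windows of 30 bases before an inner start: OCLN at chr5:69492653-69492682, plus strand, 133 bases before; SPINT1 at chr15:40844447-40844476, plus strand, 26 bases before; and CLDN7, minus strand, at chr17:7262627-7262656 (174 bases before), chr17:7262588-7262617 (135) and chr17:7262479-7262508 (20 and 9).
OCLN outermost start: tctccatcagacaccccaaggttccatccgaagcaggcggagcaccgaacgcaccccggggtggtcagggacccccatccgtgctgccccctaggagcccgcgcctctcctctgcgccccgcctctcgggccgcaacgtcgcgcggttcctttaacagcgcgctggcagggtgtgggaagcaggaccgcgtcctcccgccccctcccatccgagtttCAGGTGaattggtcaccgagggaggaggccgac
OCLN inner start: gcagCAGGTGggactcgcggcgctggcccg
SPINT1 inner start: tgatCAGGTGtgtctcctcctctgtcccct
CLDN7 inner start, far: tcctCACCTGggcaaggaggggtgggggcc
CLDN7 inner start, middle: ggttCAGGTGagtgtcccttcggtgacgtc
CLDN7 inner start, near: tacatatactCAGGTGcgcccCACCTGtcc
The inner CLDN7 start had 4 motifs in 250 bases, the most of any start window of the 29 genes, and CAGGTG and CACCTG stand 5 bases apart in the last window. No motif was found in the 250 bases before the outermost starts of CLDN7 and SPINT1. The array does not tell which start was used.

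The cytoplasmic scaffold TJP1 and the adhesion receptor CXADR were the exceptions among tight junction genes. TJP1, the ZO protein that ties claudins to actin, stood at 9.44 and 9.65, with probe sets at 0.21 and 0.12. CXADR, the coxsackievirus and adenovirus receptor, stood at 7.03 and 7.12. TJP3 (4.69 and 4.14) and CGN, cingulin (4.64 and 4.57), were under the minimum. Among 28 further tight junction and polarity genes with a probe set, 9 were measured, 7 lower and 2 higher. Of all measured genes, 44.1% were lower. The median of the 9 was -0.19. Here LSR, the lipoprotein receptor that recruits tricellulin, stood at 8.04 and 7.44 and MARVELD1 at 6.80 and 7.45, the only ones past 1.5-fold, and PRKCI, the atypical protein kinase C of the polarity complex, differed by -0.27.

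Both gap junction genes, whose connexins form channels between cells, were lower, where 44.1% of all measured genes were. GJA1, the connexin of many mesenchymal and epithelial cells, stood at 9.36 and 8.47, 1.85-fold lower. GJB2, a connexin of skin, inner ear and breast, stood at 7.56 and 7.24. In the further list GJA3, another connexin, and PANX1, a related channel protein, were measured, at 0.34 and -0.26, so the 3 measured connexins did not share a direction.

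The measured epithelial surface proteins were lower by more than 1.5-fold in 3 of 3 cases, with a median of -1.03. Among all measured genes, 5.41% were lower by at least 1.5-fold. EPCAM, an adhesion molecule of simple epithelia, stood at 8.75 and 7.85, 1.86-fold lower. SPINT2, a membrane inhibitor of serine proteases, stood at 11.11 and 10.08, 2.05-fold lower. SPINT1, its relative, stood at 7.64 and 6.15, 2.80-fold lower. The second SPINT1 probe set stood at 5.32 and 5.49, under the minimum, and did not show the difference. With the mean of both SPINT1 probe sets the difference was -0.66, short of 2-fold. Its motif before an inner start is among the sequences above. ST14, or matriptase, a protease that these inhibitors restrain, was under the minimum at 5.12 and 4.79.

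The epithelial regulators were all under the minimum, in contrast with the measured levels of CDH1 and EPCAM in the same cultures. The splicing factor ESRP1 stood at 3.59 on both arrays and the transcription factor GRHL2 at 2.93 on both. The vesicle transport protein RAB25 stood at 3.15 and 3.12, and the transcription factor OVOL1 at 4.68 and 4.76. These levels lie within the range of the unrelated-tissue genes on both arrays.

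The 4 intermediate filament genes all differed by less than 1.5-fold. KRT8 and KRT18, the keratin partners of simple epithelia, stood at 10.48 and 10.66 and at 11.59 and 11.73. KRT19 stood at 10.92 and 10.51, 1.33-fold lower. VIM, vimentin, the filament protein of mesenchymal cells, stood at 12.90 and 12.96, and its weak second probe set at 5.84 and 6.48. KRT8 and KRT18 were thus slightly higher and KRT19 lower. KRT8 and KRT18 rest on 1 probe set each, with the suffix _x_at, and have no value where such probe sets are dropped.

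Of the EMT transcription factors, SNAI2 and ZEB1 were measured. SNAI2, or Slug, a repressor of CDH1, stood at 7.78 and 8.47, 1.62-fold higher, from its only probe set. No other of the 30 measured genes was higher by 1.5-fold. That is 3.33% of them, not above the 5.19% of all measured genes. ZEB1, another such repressor, stood at 8.75 and 8.52, and its 3 measured probe sets ran from -0.28 to 0.04, so its direction was not settled. The other 4 were under the minimum. SNAI1, or Snail, stood at 4.26 and 3.98. ZEB2 stood at 5.35 and 5.52. TWIST1 stood at 1.55 and 1.92, and TWIST2 at 2.88 and 2.74.

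**Figure D3:**
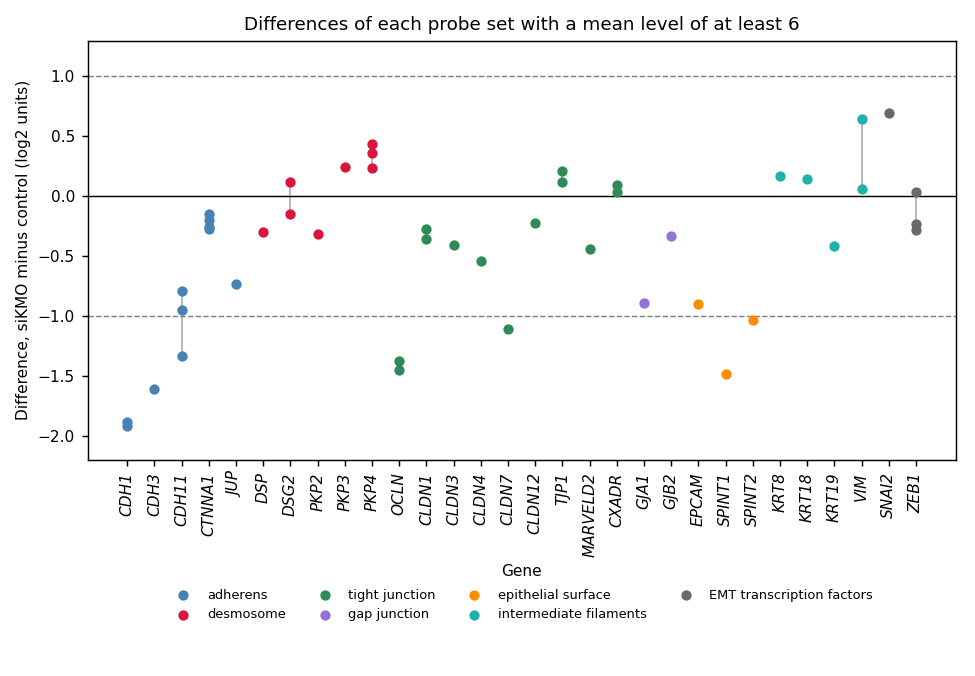
Deposited difference, siKMO minus control (log2 units, y axis), of the 46 probe sets with a mean level of at least 6, for the 30 measured genes (x axis), coloured by role, with a grey line joining probe sets of 1 gene and dashed lines at 2-fold. Both OCLN probe sets lie beyond 2-fold, CDH11 spans the line, and DSG2 and ZEB1 span 0; both CDH1 points lie beyond it as deposited, but the second is a bound of 1.93-fold with its siKMO level of 5.06 taken as 6.

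Probe sets of a gene test the measurement of its transcript, not the treatment. By deposited values, 31 of the 46 measured probe sets were lower. The share of all measured probe sets that were lower was not computed, so this count is not read as a result. Of the 46, 9 were at least 2-fold lower, with 1.21% of all measured probe sets. With levels under 6 taken as 6, 8 of the 46 were, since the second CDH1 probe set was then at least 1.93-fold lower. Of 11 genes with 2 or more measured probe sets, 9 had all differences of 1 sign (81.8%), where 72.6% of 3777 such genes did overall. CDH3, CLDN7 and SPINT2 had a single probe set, and SPINT1 a single measured one, so 4 of the 6 genes at least 2-fold lower rest on 1 measured probe set each.

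Several of the genes lie side by side in the genome. Among protein-coding genes of the RefSeq table, 6 neighbouring pairs were formed by these genes, and in 4 of them both were measured. CDH3 and CDH1 on chromosome 16 differed by -1.61 and -1.92. MARVELD2 and OCLN on chromosome 5 differed by -0.44 and -1.37, and CLDN3 and CLDN4 on chromosome 7 by -0.41 and -0.54. KRT8 and KRT18 on chromosome 12 differed by 0.17 and 0.15. Both genes of each of the 4 pairs had the same sign, as had 52.3% of 4520 neighbouring pairs of measured genes overall. The 2 shares are not alike, since 73.3% of the 30 genes were lower and 44.1% of all measured genes. Any pair from the 30 therefore shares a sign more readily, and a part of position was not tested. CDH1 and CDH3 are the only neighbours of which both were at least 2-fold lower.

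Genes of the wider epithelial and mesenchymal programs were compared from lists. Of 13 further epithelial genes with a probe set, 6 were measured, 5 lower and 1 higher, with a median of -0.37. Among all measured genes, 44.1% were lower. Of the lower ones, GRHL1 and ELF3 are named after their values were seen. GRHL1 lay near the minimum, at 6.28 and 5.96. The 3 measured probe sets of ELF3 ran from -0.41 to 0.18, so its direction was not settled. MAL2, a protein of apical transport, stood at 7.40 and 5.74, at least 2.65-fold lower. EHF, an epithelial transcription factor of the ETS family, stood at 9.99 and 9.44. AP1M2, the epithelial subunit of a sorting adaptor, was higher at 7.53 and 7.94.

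The mesenchymal list showed no common direction: of 16 measured genes, 8 were lower and 8 higher, with a median of 0.02. Of all measured genes, 44.1% were lower. FN1, fibronectin, stood at 9.40 and 10.99, 3.00-fold higher, with 4 probe sets from 1.47 to 1.59. S100A4, a calcium-binding protein linked to motility, stood at 11.68 and 10.66, 2.02-fold lower. LOX, which cross-links collagen, stood at 8.09 and 7.25, with a difference of -0.31 in its other probe set. In this pair of arrays FN1 and SNAI2 were thus higher, VIM differed by 0.06, and CDH11, LOX and S100A4 were lower.

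**Figure D4:**
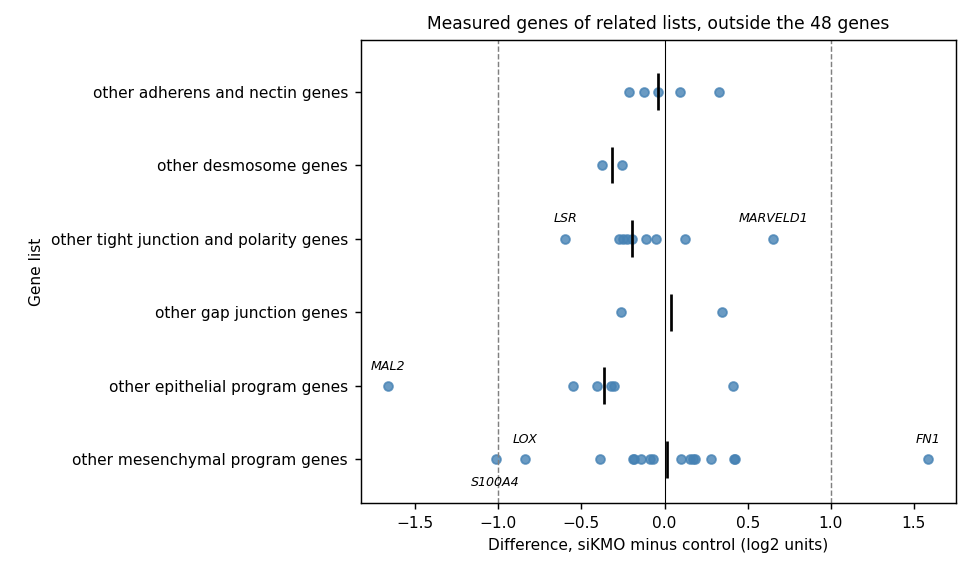
Difference, siKMO minus control (log2 units, x axis), of the measured genes of 6 related lists outside the 48 genes, 1 point per gene with a black bar at the median and dashed lines at 2-fold; genes past 1.5-fold are named. MAL2 and S100A4 lie beyond 2-fold on the left and FN1 on the right.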

How the data were processed

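The deposited values are RMA levels on a log2 scale, made by the authors with robust multi-array averaging, per the labels. Affymetrix Expression Console is the software named in the submitters' processing notes; its version, a genome build and which arrays were normalized with these are items not given in the sources used here. RMA levels have no true zero and no detection call, so low levels are compressed. Gene names came from the platform annotation and were brought up to date through gene identifiers in a RefSeq table (GRCh38.p14): of 41091 probe sets with 1 gene, 41037 matched and 54 kept the annotation's symbol, and 1801 probe sets of several genes named none.

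A gene took its probe set with the highest mean, and counted as measured at a mean of at least 6. With 1 array per condition no test was run; precision is limited by the number of arrays. Calls were made at 2-fold. The calculation was tested on simulated data. The genes, lists, minimum level and fold were chosen with earlier results of these data known. All 48 genes could be named, and up to 3 measured genes of each further list by size of difference; others were chosen after their values were seen. Alternatives covered the choice of probe set, the minimum level, a floor at 6, centring, probe set suffix and a 1.5-fold call. Python 3.11.15, pandas 2.3.3, numpy 2.4.6 and matplotlib 3.10.9 were used.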

Additional observations from a re-analysis of the deposited data

How the results depend on the processing

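No paired analysis was possible because each condition is 1 array. At 1.5-fold in place of 2-fold, 10 genes were lower and 1 higher, by construction, with 5.41% and 5.19% of all measured genes. The number at least 2-fold lower ran from 5 to 7 over the other alternatives, out of 19 to 45 genes. Of all genes at the same settings, 1.01% to 1.53% were at least 2-fold lower. Without a minimum level the number was 7 of 45, where DSC2 entered with both levels under 6. At a minimum of 7 the number was 5 of 26, since SPINT1 was no longer measured. Without probe sets of the suffix _x_at or _s_at it was 5 of 19, of which 4 were among those of the main setting. CDH1 and SPINT2 had no probe set left there, and CDH11 passed 2-fold. With the mean or the median of all probe sets the number was 6 of 26, of which 5 were among those of the main setting. SPINT1 fell under 2-fold, at -0.66, and CDH11 passed it, at -1.02 and -1.07. The median of the adherens junction genes was -1.07 with the median of all probe sets, -0.84 without a minimum level and -1.47 when probe sets with the suffix _x_at or _s_at were dropped, where 2 genes were left and CDH1 had no probe set. That of the tight junction genes was -0.28 at a minimum of 7 and -0.31 with levels under 6 set to 6. That of the epithelial surface and regulator genes was -0.90 with the mean and with the median of all probe sets, -1.49 from 1 gene without those suffixes, and -0.18 without a minimum level, where the 5 genes under it entered. Of 187 single-gene values under alternatives, 168 lay within 0.1 of the main value and 19 moved further, among them CDH11, which was -1.34 without those suffixes. Signal near background limits 15 of the 48 genes.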

Other observations

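Most further tight junction and polarity genes had a mean level under the minimum of 6, where differences carry little weight. Of 19 such genes, 12 were lower in the siKMO array, 6 higher and 1 identical, with a median deposited difference of -0.10 and a range from -1.99 to 0.32. By deposited values 2 of the 19 were at least 2-fold lower and 0 higher, and both are named here after their values were seen. With no minimum level, 1.08% of all 19775 genes were at least 2-fold lower. The share over genes under the minimum alone was not computed, so the count is not read as a result. PATJ, a scaffold of the Crumbs polarity complex, stood at 5.70 after control and 3.71 after KMO siRNA, both under 6, so no fold is given. LLGL2, a basolateral polarity protein, stood at 6.20 and 5.09, a bound of 1.15-fold when 6 stands in for the siKMO level. Of 7 further epithelial genes under the minimum, 2 were lower, 1 higher and 4 identical on both arrays.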
